A study of Mus musculus with 2 samples.

Results

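The myosin light chain isoform genes were examined in mouse back skin, in a set of 8 genes of the 24421 in the table of counts. The genes were selected on the counts of the control and stretched libraries and listed by name (Myl1, Myl2, Myl3, Myl4, Myl6, Myl6b, Myl9 and Mylpf) with those counts known, so their values are a description and carry no test. All 8 were in the table and each exceeded the floor of 3 counts in 1 or both libraries. RNA was sequenced from the whole layer of back skin of wild type C57BL6/J mice, stretched for 5 days from an initial strain of 33%, with strain added daily, in 1 library and left without strain for 5 days in the other. The methods describe 8-week-old female mice with hair in the resting phase. They do not say whether a library holds the skin of 1 mouse or of several. With 1 library per condition there was no replicate check, and every interval below covers counting error only and compares these libraries, not the conditions.

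Myosin, the motor of muscle and of the contractile cell cortex, is built on heavy chains, and the neck of each heavy chain is clasped by an essential and a regulatory light chain. Essential chains stiffen the lever arm that swings during the power stroke. Regulatory chains can be phosphorylated by light chain kinases, which switches smooth and non-muscle myosin on and tunes the force of striated muscle. Each kind of fibre has its own isoforms, so the isoforms present are used to tell developing, slow and fast fibres apart. Mouse back skin carries a thin sheet of striated muscle, the panniculus carnosus, under the dermis and fat. Myl1 encodes the essential chains of fast fibres and Mylpf their regulatory chain. Myl4 encodes the essential chain of embryonic muscle and of the heart atrium. Myl3 and Myl2 encode the essential and the regulatory chain of slow fibres and of the heart ventricle. Myl6 is the essential chain of non-muscle and smooth muscle myosin. Myl6b is a related essential chain of slow muscle and non-muscle cells, and Myl9 is the regulatory chain of smooth muscle and of many non-muscle cells.

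The isoforms are encoded by related sequences, so the stretches of read length in which they come closest are shown first, because they bear on whether a read can be assigned to its gene. The coding sequences of Myl1 and Myl4 were identical at 71.4% of their aligned bases. The 76 coding bases in which this pair was closest end at the stop codon, lie on 2 sides of an exon junction in both genes (chr1:66925037-66926254, minus strand, and chr11:104584968-104585755, plus strand, of mm10) and differ at 11 bases, written in capitals.
Myl1: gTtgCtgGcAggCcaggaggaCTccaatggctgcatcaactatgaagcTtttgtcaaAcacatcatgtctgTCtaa
Myl4: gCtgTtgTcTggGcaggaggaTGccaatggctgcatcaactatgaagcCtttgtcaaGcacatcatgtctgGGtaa
Myl6 and Myl6b are neighbours on chromosome 10, on the minus strand, with 11 bases between their gene models. Their coding sequences were identical at 79.4% of the aligned bases, the closest windows lie within 1 exon of each gene (chr10:128492636-128492711 and chr10:128496287-128496362), and only 3 of the 76 bases differ.
Myl6: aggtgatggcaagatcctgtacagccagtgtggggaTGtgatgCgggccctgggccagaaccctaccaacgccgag
Myl6b: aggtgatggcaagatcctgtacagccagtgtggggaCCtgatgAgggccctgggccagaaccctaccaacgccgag
The regulatory chains Myl2 and Mylpf were identical at 71.7% of the aligned bases. This pair is shown because Mylpf had far more counts than Myl2, and its closest windows (chr5:122101782-122102714 and chr7:127212897-127213183, both on the plus strand and across an exon junction) differ at 10 bases.
Myl2: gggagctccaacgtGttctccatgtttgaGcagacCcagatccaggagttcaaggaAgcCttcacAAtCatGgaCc
Mylpf: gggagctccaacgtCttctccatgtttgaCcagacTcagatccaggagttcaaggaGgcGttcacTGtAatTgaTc
No pair of the 8 genes shared an identical stretch of 76 bases, the length of the reads, in any annotated transcript. With stretches of 36 bases, close to the shortest reads that were kept, Myl6 and Myl6b were the only pair, with 12 stretches in common, or 0.644% of those of Myl6b. Reads of other genes are a larger concern for Myl1, which shares 7.93% of its 76-base stretches with the pseudogene Mylf-ps, and for Myl6, which shares 5.34% with several pseudogenes. The other members shared at most 1.18%. The strand setting of the counting is not given in the sources used here. Exons on the opposite strand overlap 4.65% of the exonic bases of Myl3, 3.08% of those of Myl2 and 0.0647% of those of Myl4. If strand was ignored, reads that lay wholly within such an overlap could not be told apart from those of the other gene. Among these genes only Myl3 shared 76-base stretches with the overlapping gene (Pth1r, 24 stretches), and Myl2 and Myl4 shared 0.

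Library totals were 14152379 counts for control and 11648655 for stretched skin. The 8 genes held 0.469% of all counts in control and 0.439% in stretched skin, and Myl1 and Mylpf alone made up 89.7% and 84.3% of these. The tissue label was checked on marker genes. All 8 keratinocyte genes and all 8 fibroblast genes passed the filter on low levels that is defined with the calls, and so did all 8 general skeletal muscle genes, whose summed level was 17117 CPM (counts per 1000000 counts of the library) in control and 15418 CPM in stretched skin.

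**Figure D1:**
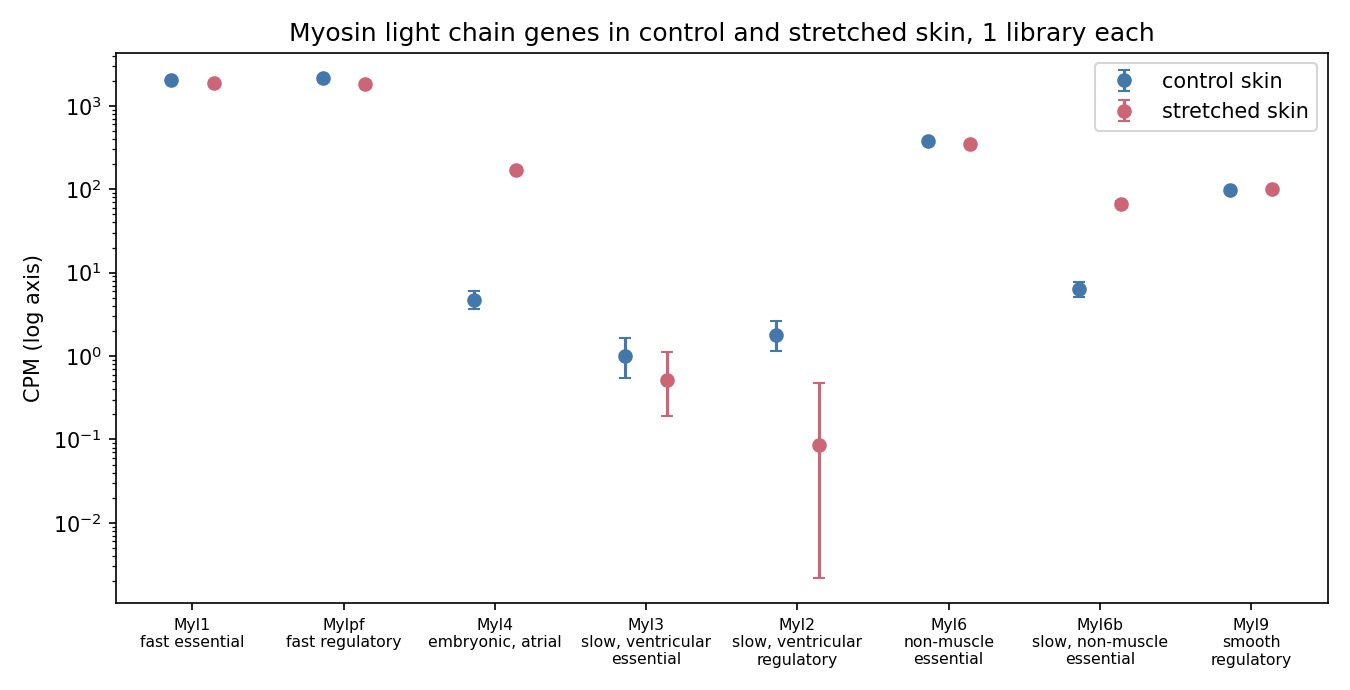
Level of each of the 8 light chain genes in CPM on a log axis, in control skin (blue) and stretched skin (red), 1 library each, with exact 95% Poisson intervals of the count. Myl4 and Myl6b stand far higher in stretched skin, at 169 and 67.3 CPM against 4.73 and 6.29 CPM, whereas Myl1, Mylpf, Myl6 and Myl9 differ little.

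Levels between genes were compared per length, as FPKM (CPM divided by the kilobases of exon). In control skin the order was Mylpf (2008), Myl1 (998), Myl6 (117), Myl9 (83.2), Myl6b (3.40), Myl4 (1.02), Myl2 (0.906) and Myl3 (0.484). The fast chains therefore stood above the rest, by a margin over Myl6 that depends on the length used. With the transcript that holds the reference coding sequence, Myl1 had 27068 and Myl6 7956 counts per kilobase in control skin. By FPKM the last 3 could not be ranked, because the interval of Myl2 (0.586 to 1.34) overlapped those of Myl4 and Myl3. In stretched skin Mylpf (1706), Myl1 (910), Myl6 (111) and Myl9 (86.7) held the first places in the same order. Myl4 (36.5) and Myl6b (36.4) followed, and their intervals, 35.0 to 38.2 and 33.9 to 39.1, overlapped almost wholly. Myl3 (0.252) and Myl2 (0.0440) came last, with overlapping intervals of 0.0925 to 0.548 and 0.00111 to 0.245. The order below Myl6 depends on the transcript length used, and with the length of the transcript that holds the reference coding sequence Myl4 ranked above Myl9 in stretched skin.

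By a filter and a threshold with the limits of the study's methods, 2 of the 6 genes that passed the filter were called higher in stretched skin and none lower. The filter requires the product of the FPKM values of both libraries to exceed 10, and the threshold is a 2-fold change. Here FPKM was computed from the counts over the union of exons, and 1 was added to each value for both steps, so the calls share the study's limits but not its FPKM estimates. Of all 10908 genes that passed it, 2.61% were called higher and 2.43% lower, 5.04% in all. Myl2 and Myl3 did not pass the filter. On the ratio of CPM alone the counting interval lay above 0 for 2 members, Myl4 and Myl6b (18.1% of all 16255 genes above the floor of 3 counts), below 0 for 4 (33.5% of all genes) and included 0 for 2. These counts depend on the scaling. With TMM the interval lay above 0 for 3 members (24.1% of all genes), with Myl9 added, and below 0 for 3 (24.1%), without Myl6, and with median of ratios the interval of Myl1 also included 0. The median log2 fold change of the 8 was -0.11, against -0.12 for those 16255 genes.

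The embryonic chain had the largest point estimate of the fold change among the members, although the interval of Myl2, given with the slow isoforms, reaches further from 0. The gene, Myl4, spans positions 104550663 to 104595753 of chromosome 11 (mm10) and had 67 counts (4.73 CPM) in control and 1974 counts (169 CPM) in stretched skin. The level was 35.8-fold higher in stretched skin (interval 28.1 to 46.4), or 5.16 on the log2 scale (4.81 to 5.54). Myl4 ranked 4 from the top among the 12740 genes whose counts in both libraries summed to 100 or more. The 3 genes nearest to it in log2 fold change, of those with at least 100 counts, were Igfn1 (5.07), Tnni1 (4.77) and Krt2 (4.76). Igfn1 encodes an immunoglobulin-like protein of skeletal muscle, Tnni1 the slow troponin I, and Krt2 a keratin of the upper epidermis. The likeness is measured over 2 libraries only, and the interval of each of these genes reached into that of Myl4.

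Myl6b was the other called gene. It lies on chromosome 10 from 128494157 to 128498685 and had 89 counts (6.29 CPM) in control skin and 784 counts (67.3 CPM) in stretched skin. The level was 10.7-fold higher (interval 8.59 to 13.5), or 3.42 on the log2 scale (3.10 to 3.75), and ranked 19 of the 12740 genes. Its neighbour Myl6, from 128490860 to 128494145, had 5291 counts (374 CPM) in control and 4113 counts (353 CPM) in stretched skin. The log2 fold change of Myl6 was -0.08 (interval -0.14 to -0.02), and its sign turned positive when libraries were scaled by upper quartile (0.02), TMM (0.02) or median of ratios (0.03). Within each library, Myl6b had 1.68% as many counts as Myl6 in control and 19.1% in stretched skin. The ratio was 11.3-fold higher in stretched skin (interval 9.05 to 14.3), and this change between the libraries depends neither on gene length nor on scaling. Thus adjacent genes with related products differed by very unequal amounts between the libraries.

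**Figure D2:**
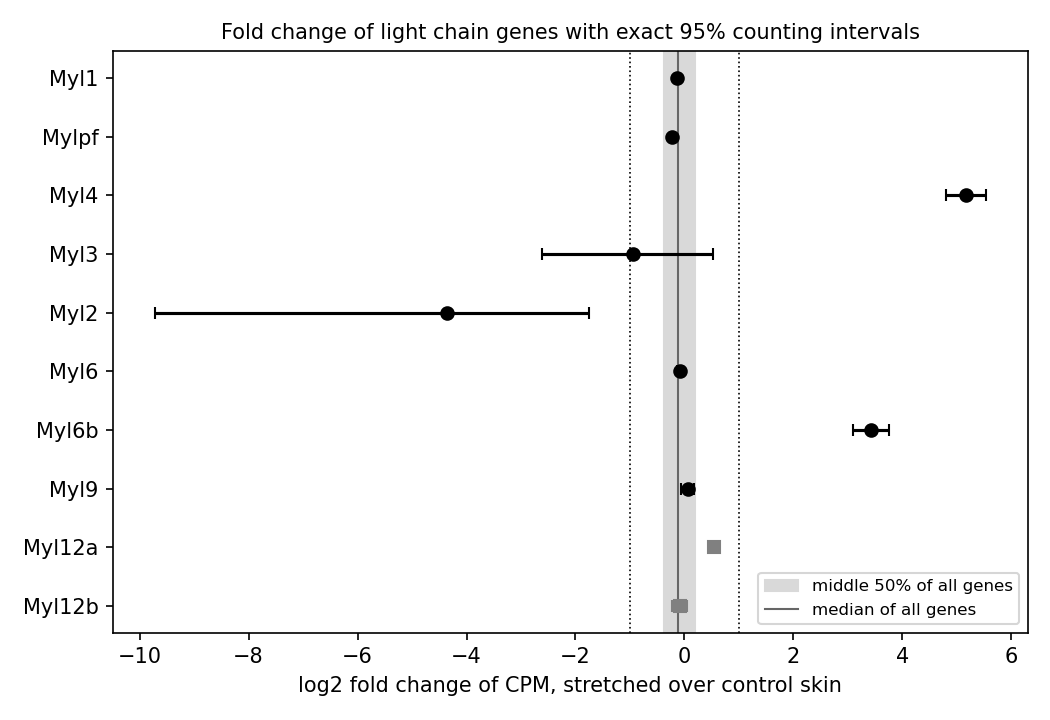
Log2 fold change of CPM in stretched over control skin (horizontal axis) for the 8 light chain genes (circles) and for Myl12a and Myl12b (grey squares), without a floor, with exact 95% counting intervals, dotted lines at 2-fold and a grey band for the middle 50% of all genes. Of the 8, only Myl4 (5.16) and Myl6b (3.42) lie beyond 2-fold higher, and the wide interval of Myl2 rests on 25 counts and 1 count.

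The fast isoforms were the most abundant members in both libraries and were slightly lower in stretched skin. Myl1, on chromosome 1 from 66924295 to 66945404, had 29288 counts (2069 CPM) in control and 21997 counts (1888 CPM) in stretched skin. Its log2 fold change was -0.13 (interval -0.16 to -0.11), which is close to the median of all genes (-0.12). The gene makes a longer and a shorter fast chain from separate starts, and a count per gene does not divide them. Mylpf, on chromosome 7 from 127208890 to 127214298, had 30182 counts (2133 CPM) and 21102 counts (1812 CPM). Its log2 fold change was -0.24 (interval -0.26 to -0.21). With the scaling alternatives Myl1 lay between -0.07 and -0.02 and Mylpf between -0.17 and -0.12, so the size of these small differences depends on the scaling. In counts, Myl1 stood at 0.970 of Mylpf in control and at 1.04 in stretched skin, a change of 1.07-fold (interval 1.05 to 1.10) that no scaling alters.

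The slow and ventricular isoforms Myl2 and Myl3 had few counts in both libraries, unlike Myl6b, which slow muscle also uses and whose values are given above. Myl2, on chromosome 5 from 122100951 to 122113472, had 25 counts (1.77 CPM) in control skin and 1 count (0.0858 CPM) in stretched skin. The ratio of these counts gave a log2 fold change of -4.36 (interval -9.72 to -1.75), -2.78 with the count of 1 set to the floor of 3, and -1.35 with 1 CPM added to both values. The difference exceeded counting error, but its size is poorly known. Myl3, on chromosome 9 from 110741861 to 110769798, had 14 counts (0.989 CPM) and 6 counts (0.515 CPM). Its log2 fold change was -0.94 with an interval from -2.61 to 0.53, so a difference was not detectable at this depth. In counts, Myl2 was 0.0828% of Mylpf in control and 0.00474% in stretched skin, and Myl3 was 0.0478% of Myl1 and 0.0273%. For the latter ratio the interval of the change was 0.180 to 1.58-fold and included no change.

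Myl9, the smooth muscle regulatory chain on chromosome 2 from 156775420 to 156781658, had 1369 counts (96.7 CPM) in control and 1173 counts (101 CPM) in stretched skin. The log2 fold change of 0.06 had an interval from -0.06 to 0.17, but it lay above 0 with each of the other scalings (0.12 to 0.17), so whether Myl9 differed beyond counting error depends on the scaling. Relative to Myl6 in the same library, Myl9 stood at 25.9% in counts in control and 28.5% in stretched skin, a 1.10-fold change (interval 1.01 to 1.20). Whole skin mixes many cell types, and fewer cells of a type cannot be told apart from less RNA per cell.

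**Figure D3:**
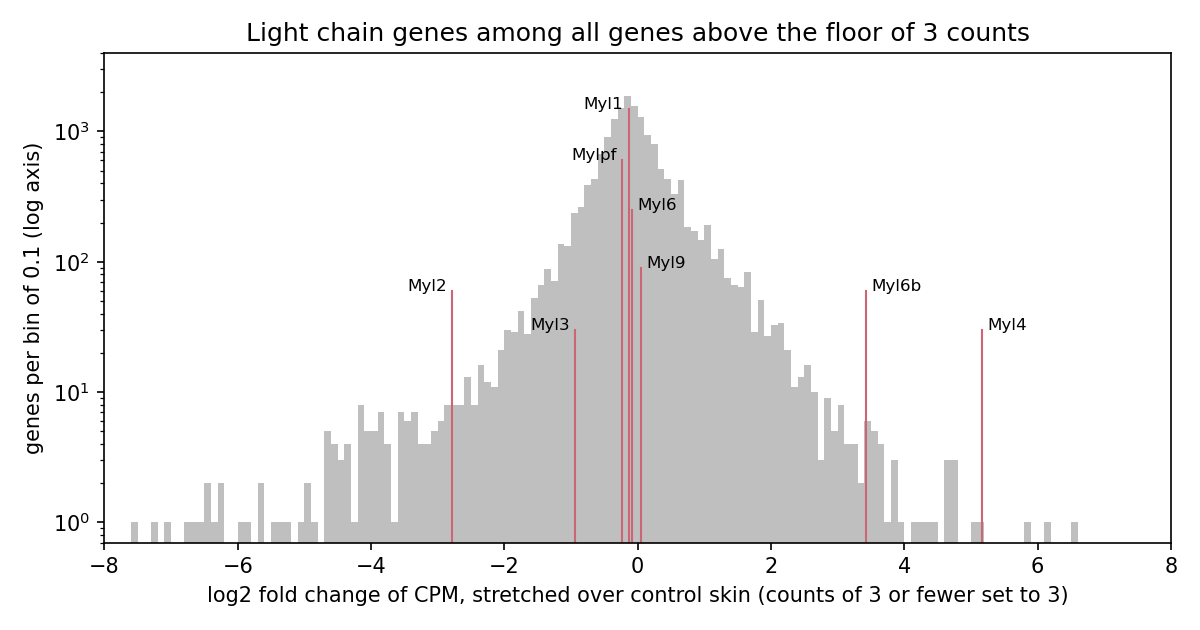
Distribution of the log2 fold change of CPM in stretched over control skin for the 16255 genes above the floor of 3 counts (grey, genes per bin of 0.1, log axis), with red lines at the 8 light chain genes, whose heights carry no value. Myl1, Mylpf, Myl6 and Myl9 fall in the centre of the distribution, Myl2 (-2.78 with its count of 1 set to 3) in the lower tail, and Myl4 (5.16) and Myl6b (3.42) in the upper tail.

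The make-up of each class of light chain was measured as the share of its counts per kilobase of exon within a library. The sarcomeric essential chains were taken as Myl1, Myl3 and Myl4, and Myl6b, which slow muscle also uses, was set beside Myl6 instead. In this class Myl4 made up 0.102% (interval 0.0792% to 0.130%) in control skin and 3.86% (interval 3.69% to 4.03%) in stretched skin. Myl1 made up 99.8% and 96.1%. Hence Myl1 was the main sarcomeric essential chain in both libraries. The exon model of Myl4 is long (4637 bases) compared with its transcript of 879 bases with the reference coding sequence. With reference transcripts the share of Myl4 was 0.281% in control and 9.94% in stretched skin, and without a length correction 0.228% and 8.23%. The direction of the gap between the libraries could not change with the length, because the length of a gene applies to both libraries alike. The share itself is uncertain to about the range from 2.88% to 9.94% in stretched skin. The ratio of the counts of Myl4 to those of Myl1 was 39.2-fold higher in stretched skin (interval 30.7 to 50.9) and needs no length. Among the sarcomeric regulatory chains, Mylpf made up 99.95% in control and 99.997% in stretched skin. The summed counts of Myl1, Myl3 and Myl4 over those of Mylpf and Myl2 were 0.972 in control and 1.14 in stretched skin, a 1.17-fold change (interval 1.14 to 1.20).

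**Figure D4:**
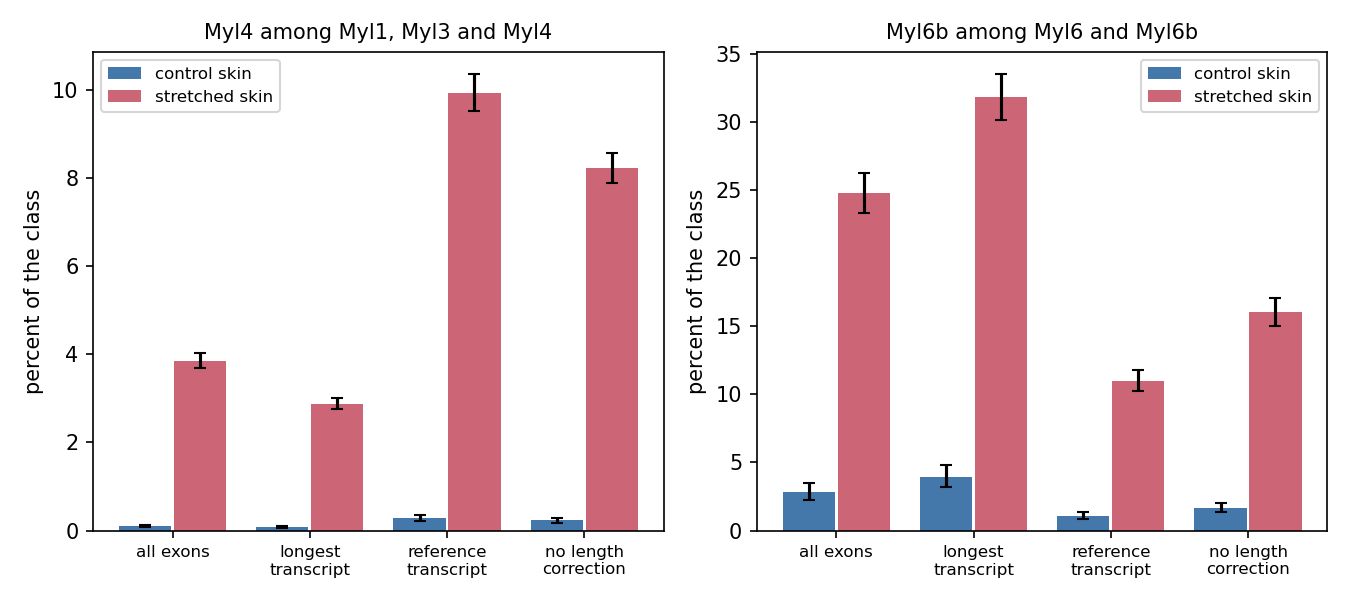
Share of Myl4 among Myl1, Myl3 and Myl4 (left) and of Myl6b among Myl6 and Myl6b (right), in percent of the class, in control (blue) and stretched skin (red), with 95% counting intervals, for 3 choices of gene length and for counts without a length. With exon models Myl4 stands at 0.102% and 3.86% and Myl6b at 2.82% and 24.8%. The stretched bar is higher in every setting, which a length common to both libraries cannot alter.

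Of Myl6 and Myl6b together, Myl6b made up 2.82% (interval 2.27% to 3.46%) in control skin and 24.8% (interval 23.3% to 26.2%) in stretched skin. With reference transcripts these shares were 1.08% and 11.0%. Among Myl9, Myl12a and Myl12b, the regulatory chains outside striated muscle, Myl9 made up 40.6% in control and 34.8% in stretched skin, and 15.0% and 11.96% with reference transcripts. Myl12a, a widely expressed non-muscle chain, had 4488 and 5354 counts, a log2 fold change of 0.54 (interval 0.48 to 0.59). Myl12b, its near copy, had 1074 and 831 counts (-0.09, interval -0.22 to 0.04). Because 18.4% of the 76-base stretches of Myl12a and 15.8% of those of Myl12b also occur elsewhere, mainly in each other, their values are uncertain. Of the other light chain genes, the atrial Myl7 had 0 counts in both libraries, for which a limit of 3 counts is 0.212 CPM in control and 0.258 CPM in stretched skin. Myl10 had 4 counts and 0 counts.

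The heavy chains that these light chains bind were compared as a list of 9 striated muscle genes. By the filter and threshold 4 were called higher and 1 lower of the 5 that passed the filter, against 2.61% and 2.43% of all genes that passed. The embryonic Myh3 had 59 counts in control and 4637 in stretched skin (log2 fold change 6.58), and the perinatal Myh8 had 381 and 6948 counts (4.47). The ratio of Myl4 to Myh3 was 1.14 in control and 0.426 in stretched skin, and that of Myl4 to Myh8 was 0.176 and 0.284. Myl4 therefore differed by less than Myh3 and by more than Myh8, and both differences exceeded counting error (intervals of the change 0.259 to 0.542 and 1.24 to 2.14). Of the fast heavy chains, Myh4 had 91029 counts in control and 3156 in stretched skin (-4.57), whereas Myh1 (1.10) and Myh2 (1.46) were called higher. Myl1 and Mylpf, the light chains of these fast fibres, lay within 0.24 of 0 on the log2 scale. The slow Myh7 had 106 counts and 13 counts (-2.75, interval -3.70 to -1.91), a difference of the same sign as that of Myl2. These fast heavy chain genes are near copies, and 20.6% of the 76-base stretches of Myh1 and 15.3% of those of Myh2 also occur in other genes.

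Other genes of slow and fast fibres were read beside the light chains. All 8 fast fibre genes had intervals below 0, against 33.5% of all genes above the floor, with a median log2 fold change of -0.75. Of these 8, 3 were called lower, against 2.43% of all genes that passed the filter (Atp2a1, the calcium pump of fast fibres, at -1.36, Pvalb at -2.11 and Mybpc2 at -2.11). The least of these differences, that of Tnnc2 (-0.40), was larger than those of Mylpf and Myl1. All 8 slow fibre genes had intervals above 0, against 18.1% of all genes, with a median of 1.54, and 5 were called higher, against 2.61%. Tnni1 had 47 and 1055 counts (4.77) and Tnnc1 had 19 and 229 counts (3.87), and both are also known from developing fibres. Myl2 and Myl3, the light chains that share the slow fibre with these genes, had fewer counts in stretched skin, as given above. Slow troponins and Myl6b were thus higher in stretched skin and Myl2 and the slow heavy chain Myh7 (-2.75) lower, whereas the difference of Myl3 lay within counting error.

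**Figure D5:**
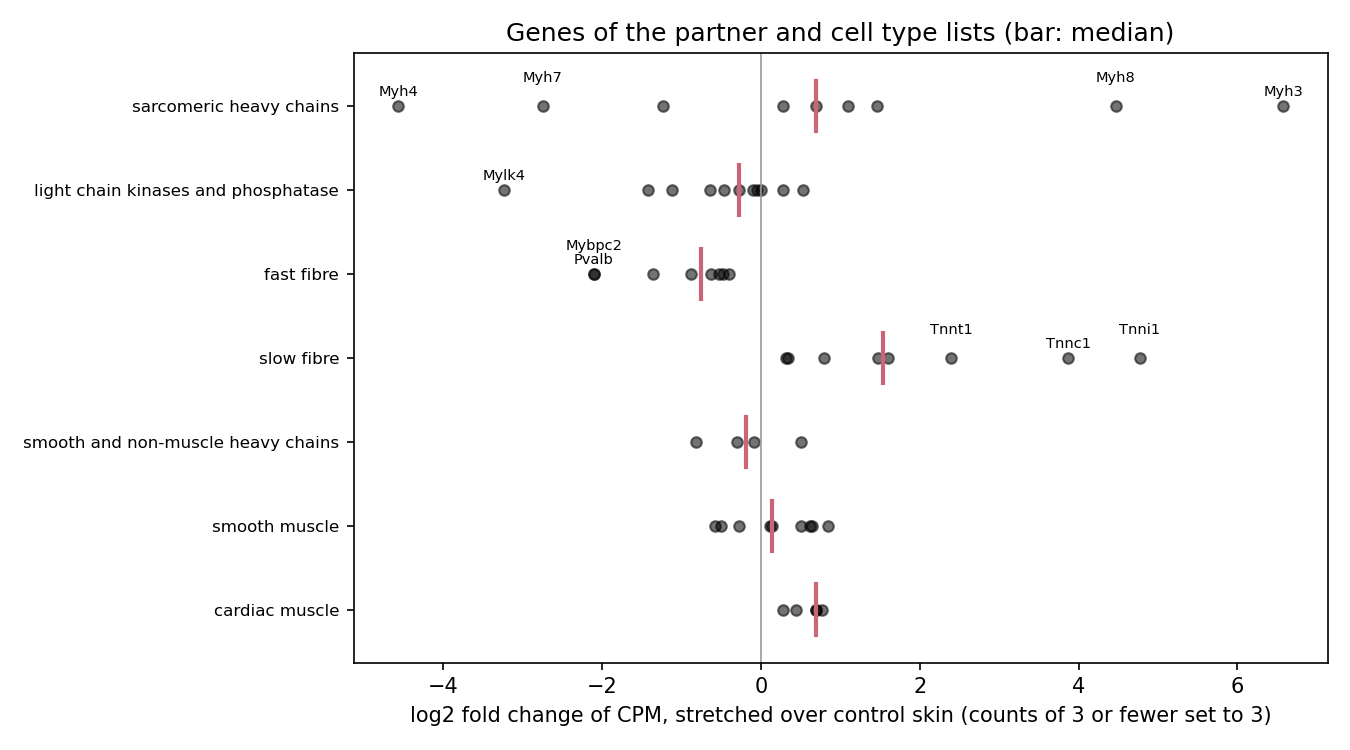
Log2 fold change of CPM in stretched over control skin, with counts of 3 or fewer set to 3, for each gene above the floor (points) of 7 lists, with the median of each list (red bar) and names beside genes at least 4-fold different. The 8 fast fibre genes lie below 0 and the 8 slow fibre genes above 0, while the heavy chains spread from Myh4 (-4.57) to Myh3 (6.58).

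The enzymes that phosphorylate regulatory light chains, and the phosphatase that opposes them, formed a list of 11 genes with a median log2 fold change of -0.27. The interval lay above 0 for 2 of them, below 0 for 5 and included 0 for 4, and 1 of the 8 that passed the filter was called, lower. Of all genes above the floor, 18.1% had an interval above 0 and 33.5% below 0, and 2.43% of those that passed the filter were called lower, so these counts say little about the list. This was Mylk2, the kinase of skeletal muscle light chains, with 1681 counts in control and 518 in stretched skin (-1.42, interval -1.56 to -1.27). Mylk4, another kinase of striated muscle, had 446 and 39 counts (-3.23, interval -3.75 to -2.76) but did not pass the filter. Mylk, the kinase of smooth muscle and non-muscle cells, had 1137 and 1134 counts (0.28, interval 0.16 to 0.40), and Mylk3, the cardiac kinase, had 17 and 9 counts. Of the phosphatase genes, the catalytic subunit Ppp1cb stood at -0.47 and the targeting subunits Ppp1r12a, Ppp1r12b and Ppp1r12c at -0.27, -1.12 and 0.53. Rock1, Rock2 and Dapk3, kinases that also act on this pathway, had intervals that included 0. Thus the regulatory chain of fast fibres was nearly as abundant in stretched as in control skin, while Mylk2 and Mylk4, kinases of striated muscle, were lower.

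Markers of other cells that use the same isoforms were set beside these values. Myl4, Myl3 and Myl2 are also heart genes, and of the 7 genes that define cardiac muscle none passed the expression filter. Their summed level was 3.04 CPM in control and 4.55 CPM in stretched skin, Myl7 was at 0 and Nppa had 0 and 1 counts. Of the 9 smooth muscle genes the interval lay above 0 for 6 and below it for 3 (18.1% and 33.5% of all genes), the median was 0.14, and the summed level was 2005 CPM and 2885 CPM. Desmin (Des), which striated muscle also makes, gives 1085 CPM and 1951 CPM of these sums. Of the smooth and non-muscle heavy chains, Myh11 stood at 0.51, Myh9 at -0.30, Myh10 at -0.08 and Myh14 at -0.81. All 8 fibroblast genes had intervals above 0, against 18.1% of all genes, with a median of 0.55 against -0.12 for all genes. Of the 8 keratinocyte genes the interval lay above 0 for 4, below it for 3 and included 0 for 1, with a median of 0.01. The part of such shifts in the light chain values was not tested.

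Finally, the bases before the annotated start of the called genes are shown, since Myl4 and Myl6b were both higher in stretched skin, together with those of Myl1 for comparison. The sequences are from RefSeq on GRCm38.p6, the assembly also named mm10, and all 8 members had an entry. Each is 250 bases, 5′ to 3′, and ends at the base before the start. Capitals mark matches to the E-box (CANNTG), the site of myogenic factors such as MyoD and myogenin, and to the MCAT element (CATTCC on either strand), the site of TEAD factors. Motifs of MEF2 and the CArG box of serum response factor, both searched on both strands, had no match in these 3 windows.
Myl4, chr11:104550413-104550662, plus strand: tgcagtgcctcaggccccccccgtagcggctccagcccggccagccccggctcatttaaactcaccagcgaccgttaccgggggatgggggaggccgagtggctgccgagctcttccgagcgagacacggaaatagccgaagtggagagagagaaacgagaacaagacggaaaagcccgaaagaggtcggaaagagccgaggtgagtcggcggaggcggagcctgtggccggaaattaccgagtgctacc
Myl6b, chr10:128498686-128498935, minus strand: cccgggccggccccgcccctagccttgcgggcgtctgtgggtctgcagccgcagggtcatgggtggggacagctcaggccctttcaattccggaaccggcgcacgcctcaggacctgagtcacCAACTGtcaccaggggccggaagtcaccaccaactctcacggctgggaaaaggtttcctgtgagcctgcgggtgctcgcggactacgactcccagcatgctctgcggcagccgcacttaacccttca
Myl1, chr1:66945057-66945306, minus strand: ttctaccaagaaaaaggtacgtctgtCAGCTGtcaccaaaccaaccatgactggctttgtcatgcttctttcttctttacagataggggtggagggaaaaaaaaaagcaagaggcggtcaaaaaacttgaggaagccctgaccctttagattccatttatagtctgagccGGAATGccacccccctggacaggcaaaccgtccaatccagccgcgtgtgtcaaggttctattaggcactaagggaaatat
The window of Myl6b held 1 E-box, that of Myl1 held 1 E-box and 1 MCAT element, and that of Myl4 held no match to any of the 4 motifs. Of 32851 such windows of all genes, 66.2% held an E-box, 12.6% an MCAT element, 2.92% a MEF2 motif and 1.47% a CArG box, so an E-box is common. Among the other members, a CArG box was found in a window of Myl9, of Myl6 and of Myl3. MCAT elements also occurred in the window of Myl3, and E-boxes in windows of Myl2, Myl3, Myl6 and Mylpf. The start shown for Myl4 is the most upstream of its annotated starts, and several transcripts of the gene begin further downstream. A match describes the letters only, and no binding was measured.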

How the data were processed

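The authors deposited raw counts of reads per gene symbol for 1 library of control skin and 1 of stretched skin, without normalization. Reads of 76 bases had passed a quality filter (FASTX-Toolkit) before alignment by TopHat2 to mm10. The counting program is not given in the sources used here. From these counts, CPM used the total counts (14152379 and 11648655) and FPKM also the union of exons in GENCODE M21 (98.5% of genes). Fold changes carry exact 95% Clopper-Pearson intervals and changes of ratios exact conditional intervals, for counting error only. Counts of 3 or fewer were set to 3 for ranks and lists. Calls used the limits of the study's methods on the FPKM computed here, with 1 added to each value. No p-value is given. Named were the 8 genes, all list genes and the 3 genes nearest to Myl4. The members and lists were chosen with earlier results of these data known. Alternatives were other scalings (upper quartile, TMM in edgeR 4.0.16, size factors of DESeq2 1.42.0, and totals that omit the 50 most abundant genes), pseudocounts, filters and lengths. Python 3.11.15, scipy 1.17.1 and R 4.3.3 were used.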

Additional observations from a re-analysis of the deposited data

How the results depend on the processing

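The scaling alternatives add between 0.06 and 0.11 to every log2 fold change. Of 40 values of single genes, 27 stayed within the counting interval, 13 moved and 3 changed sign, all of Myl6. The counting intervals under each scaling were added after seeing the data. Myl4 and Myl6b were called higher, and no member lower, in every alternative except an EV (the product of both FPKM) above 100. There 1 gene, Myl6b, was called, because the EV of Myl4 is 75.9. Myl2 and Myl3 failed the filter in each setting that kept it. Without the filter, the 1 added to each FPKM held their log2 fold changes to -0.868 and -0.245. Neither gene could therefore be called lower in any setting. With the longest transcript, the shares in control and stretched skin were 0.0755% and 2.88% for Myl4, 3.95% and 31.8% for Myl6b and 30.1% and 24.8% for Myl9. Without a length correction they were 0.228% and 8.23%, 1.65% and 16.01%, and 19.8% and 15.9%. With the reference transcript, a setting chosen after seeing the data, they were 0.281% and 9.94%, 1.08% and 11.0%, and 15.0% and 11.96%. The share of Myl2 in control skin was 0.0713%, 0.0828% and 0.0958% in the same order, against 0.0451% with exon models. These shifts follow from the lengths themselves. The longest transcript was also applied to the calls after seeing the data. No paired analysis was possible because each condition has 1 library, which also prevents leaving one out. The depth limits Myl2, Myl3, Myl7 and Myl10 most.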
